A study of Mus musculus with 23 samples.

Results

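The 10 genes described here encode the growth factor Igf1, the receptors Igf1r and Insr, the docking protein Irs1 and the binding proteins Igfbp2, Igfbp3, Igfbp4, Igfbp5, Igfbp6 and Igfbp7. They were taken by symbol from the deposited expression table, are 10 of the 18193 genes with a probe set of a single symbol, and are measured by 28 probe sets. Where a gene has several probe sets, the one that was brightest on average across the 23 lines gives its value, as log2 signal. All 10 passed the filter on low values, a level above the median of the whole table (5.13) in at least 3 lines, but Igfbp2 lay above that median in just 5 lines and passed only through the Type 1 lines.

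Each of the 23 samples is a clonal preadipocyte line grown from 1 sorted cell of the stromovascular fraction, the non-fat cells of adipose tissue, of a single male Immortomouse aged 8 weeks. In this strain a temperature-sensitive viral antigen keeps cells dividing, and all lines were grown at 33 °C with interferon gamma at 10 units/mL. The submitters grouped the lines by clustering of their expression data into Type 1 (3 lines), Type 2 (5 lines), Type 3 (8 lines) and Other (7 lines without a numbered type). Differences between the groups therefore describe those clusters and are not independent evidence for them, and p-values measure the spread between clones of 1 animal. The clone names begin with PGF in 11 lines and SCF in 12, read here as perigonadal and subcutaneous fat. All 3 Type 1 lines are PGF, Type 2 holds 1 PGF and 4 SCF lines, Type 3 holds 4 of each, and Other holds 3 PGF and 4 SCF lines. Each line carries a score for its capacity to form fat cells, assessed by lipid staining after induction: 11 lines scored 2, 7 scored 3 and 5 scored 4. All 3 Type 1 lines scored 2, so depot and score do not vary within that type, and within it type, depot and a low score cannot be told apart. PGF lines and lines of score 2 also occur outside Type 1, and Type 3 line 7 and Other line 7 are both. The labels do not say whether the RNA came from cells before or after induction.

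Insulin-like growth factors signal through the receptor tyrosine kinase Igf1r, and insulin through its close relative Insr. Both receptors phosphorylate docking proteins such as Irs1, which pass the signal to phosphoinositide 3-kinase. The binding proteins hold the growth factors outside the cell and can block or prolong their action. In preadipocytes Igf1r is the main route by which insulin-like growth factors, and insulin at high concentration, promote differentiation, while Insr becomes more abundant as fat cells form.

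Of the 6 preadipocyte and mesenchymal markers on the array, Pdgfra, Pdgfrb, Col1a1 and Dlk1 lay above the table median in all 23 lines, Thy1 in 20 and Cd34 in 18, with Cd34 above it in 2 of the 5 Type 2 lines. Pdgfrb was lower in Type 1 in all 3 comparisons (log2 differences of -2.41, -2.51 and -2.55 against Type 2, Type 3 and Other, limma), Pdgfra was lower against Type 3 (-1.83) and Other (-1.75), and Cd34 was higher against Type 2 (4.42). The fat cell markers Adipoq, Cidec and Lep lay below the table median in all lines except for Adipoq in 1 Type 3 line. The Type 1 lines also stood apart in markers of mesothelium, the lining of the body cavities and their organs. All 5 of these markers (Wt1, Msln, Upk3b, Lrrn4 and Krt18) rose in Type 1 in each of the 3 comparisons. Msln and Lrrn4 lay above the table median in 3 lines and the others in 4, each time counting the 3 Type 1 lines. They therefore entered the test only through Type 1, and their calls are descriptions. Of all tested genes 14.5%, 18.9% and 16% were higher in Type 1 than in Type 2, Type 3 and Other. The mean level of the marker list ran from 9.99 to 11.14 in Type 1 lines. It ran from 3.50 to 3.70 among Type 2 lines, from 3.43 to 4.03 among Type 3 lines and from 3.46 to 5.17 among Other lines. Of 4 smooth muscle markers, Tagln was higher in Type 1 than in Type 3 (4.63) and Other (4.08), as was Acta2 (2.17 and 2.47); Des did not pass, and Myh11 lay below the table median in all 23 lines. Of 4 endothelial markers, Kdr was higher in Type 1 in all 3 comparisons (2.03, 2.19 and 1.78 against Type 2, Type 3 and Other), and Pecam1, Cdh5 and Tie1 lay below the table median in all lines. Of 4 leukocyte markers, Cd68 was higher in Type 1 than in Type 3 (1.30), and Ptprc, Adgre1 and Itgam lay below the table median in all lines. The part of these markers in the results on Type 1 was not tested. In bulk RNA a change in the make-up of a culture and a change in RNA per cell cannot be told apart.

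The genes differed in how far they varied between clones. The SD over all lines was 2.41 for Igfbp2, 2.14 for Igfbp3, 2.11 for Igfbp5, 2.07 for Igfbp4 and 1.93 for Igf1, and between 0.171% and 0.577% of the 12307 tested genes had a larger one. The SD of Igfbp6 was 1.01, with 4.84% of tested genes above it. For Irs1 (0.44), Insr (0.41), Igf1r (0.38) and Igfbp7 (0.37) that share was 20.7% to 26.6%. From the lowest to the highest line the receptors and Irs1 spanned 1.75 to 2.07 log2 units, and these 4 genes still varied more than most tested genes.

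**Figure D1:**
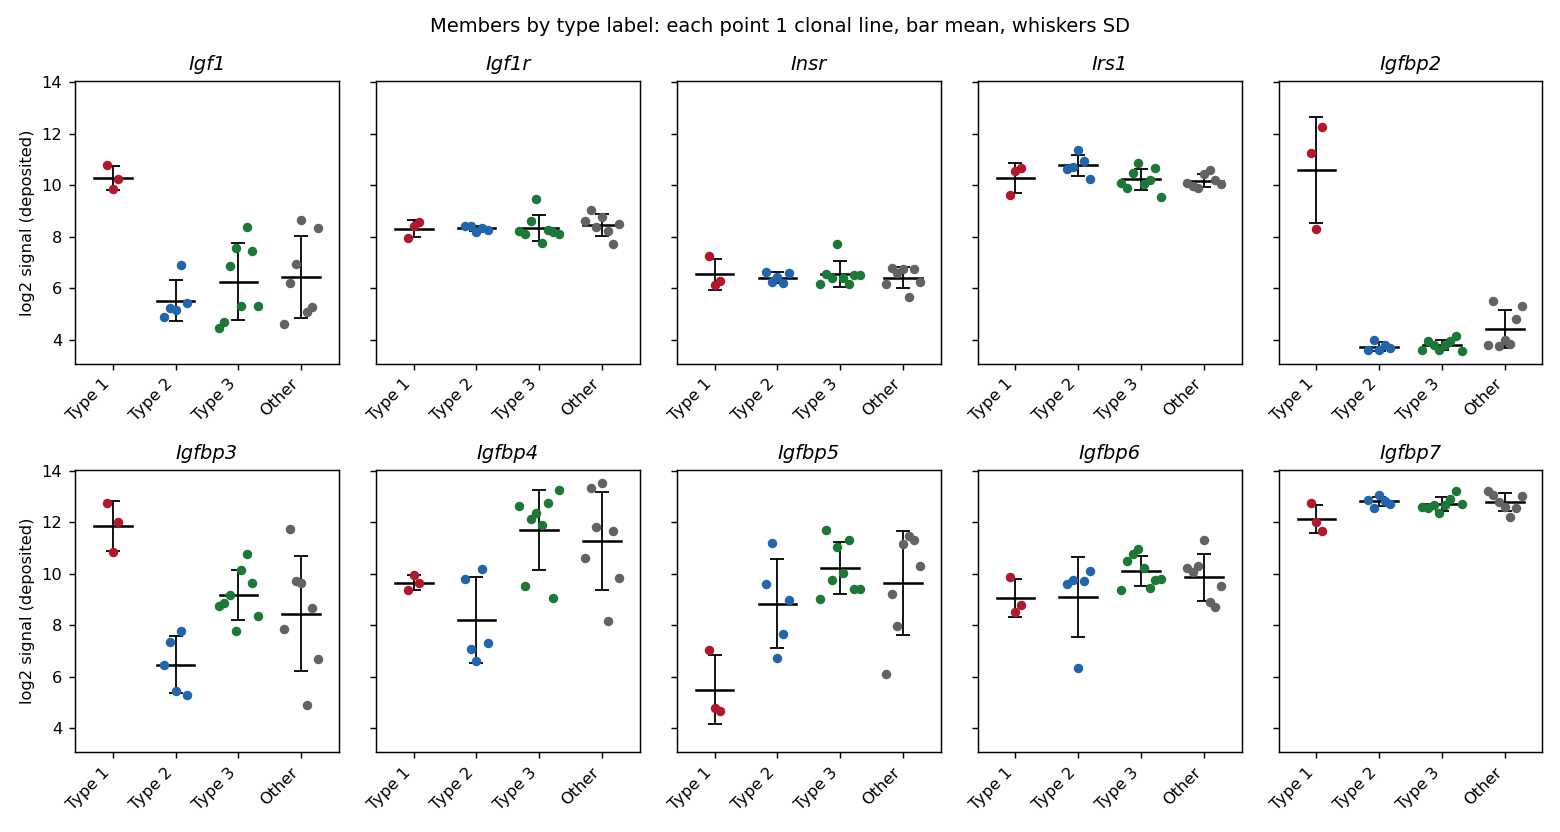
Log2 signal of the 10 genes (y axis, 1 panel per gene) by type label (x axis), with 1 point per clonal line, bars at the group mean and whiskers of 1 SD. Igf1 and Igfbp2 lie higher in all 3 Type 1 lines than in the 20 other lines, and Igfbp4 spans 6.63 to 13.55 outside Type 1.

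In Type 1, 5 of the 10 genes changed against each other group, and they were the same genes each time: Igf1, Igfbp2 and Igfbp3 rose and Igfbp5 and Igfbp7 fell (limma, adjusted p below 0.05). Igfbp2 is counted among them as a description only, as it entered the test through Type 1. Of all tested genes, 25.2% changed in Type 1 against Type 2 (14.5% higher, 10.7% lower), 34.7% against Type 3 (18.9% higher, 15.8% lower) and 28.4% against Other (16.0% higher, 12.4% lower), so that calls in Type 1 were common across the array. The 3 comparisons share the Type 1 lines. The median difference of the 10 genes was 0.06 against Type 2, -0.01 against Type 3 and -0.02 against Other, beside 0.01 for all tested genes in each.

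Igf1, the secreted ligand of Igf1r, was high in every Type 1 line. It measured 10.77, 9.84 and 10.26 in the Type 1 lines, against 4.86, 5.22, 5.14, 6.88 and 5.41 in the Type 2 lines. In Type 3 the lowest, median and highest values were 4.44, 6.09 and 8.37, and in Other they were 4.61, 6.20 and 8.65. All 3 Type 1 lines lay above all 20 other lines, and the 8 other PGF lines reached 8.37. Igf1 was 4.79 ± 0.92 (SE) higher in Type 1 than in Type 2 (27.6-fold, adjusted p = 0.000487, limma). Against Type 3 the difference was 4.04 ± 0.85 (adjusted p = 0.000843) and against Other 3.86 ± 0.87 (adjusted p = 0.00188). All 4 probe sets of Igf1 passed in the 3 comparisons. Igf1 also spread widely within Type 3, where lines 1, 2, 5 and 8 lay between 4.44 and 5.32, and lines 3, 4, 6 and 7 between 6.85 and 8.37.

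The receptors Igf1r and Insr and the docking protein Irs1 did not pass in any of the 9 comparisons. Igf1r averaged 8.31 in Type 1, 8.32 in Type 2, 8.34 in Type 3 and 8.46 in Other, and the groups overlapped throughout. The 95% interval of the difference ran from -0.60 to 0.58 for Igf1r in Type 1 against Type 2, from -0.58 to 0.52 against Type 3 and from -0.70 to 0.41 against Other. Insr averaged 6.54 in Type 1, 6.41 in Type 2, 6.54 in Type 3 and 6.41 in Other, with intervals of -0.50 to 0.77, -0.59 to 0.59 and -0.47 to 0.73 for Type 1 against the other groups in that order. Of the 3 probe sets of Insr 1 was tested, and the others did not pass the filter on low values. Type 3 line 4 was the highest line for both receptors, at 9.48 for Igf1r and 7.71 for Insr. That line also had the highest mean level of the fat cell markers (4.29), which is still below the table median. This mean was raised by Adipoq (6.48), while Cidec and Lep lay below that median in all lines. The differentiation score of Type 3 line 4 was 4. Type 3 line 5, lowest of its type for Igf1r (7.76), and Other line 5, lowest of all lines for Insr (5.64), also scored 4. A link between these values was not tested.

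Irs1 was somewhat higher in Type 2. It measured 10.63, 10.69, 11.36, 10.96 and 10.24 in Type 2 lines, against 9.56, 10.16 and 10.86 (lowest, median and highest) in Type 3 and 9.88, 10.08 and 10.61 in Other. The groups overlapped. The difference was 0.55 ± 0.22 for Type 2 against Type 3 (adjusted p = 0.194, limma) and 0.60 ± 0.22 against Other (adjusted p = 0.249), so that neither passed, whereas with array weights the first did (0.72, adjusted p = 0.0193). In Type 1 Irs1 measured 9.62, 10.57 and 10.68, within the range of the other lines.

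Igfbp2, a carrier of both insulin-like growth factors that also contacts integrins, was high in the Type 1 lines and at the low end of the array's signal in nearly all others. It measured 11.25, 8.29 and 12.25 in Type 1 lines, against 3.60, 3.98, 3.60, 3.80 and 3.66 in Type 2. In Type 3 it ran from 3.56 through a median of 3.78 to 4.12, and in Other from 3.76 through 3.98 to 5.48. The 3 Type 1 lines lay above all other lines, while 18 of the other lines stayed below the table median, where the signal carries little information on differences. Of the 10 genes, Igf1 and Igfbp2 were the 2 with all Type 1 lines above all 20 others, and 0 had them all below; of all tested genes 7.86% lay wholly above and 5.89% wholly below. Because the other groups lay mostly below the table median, the size of the difference is not set by these data. With every value below that median raised to it, the difference was 5.46 from Type 2 and from Type 3 and 5.39 from Other, with 44.1-fold and 41.9-fold as the sizes on a linear scale. No detection calls were used, so the table median stands here for a low level and not for a limit of detection. As deposited, the differences of Igfbp2 were 6.87 ± 0.55, 6.80 ± 0.51 and 6.18 ± 0.52 against Type 2, Type 3 and Other (adjusted p = 4.35e-09, 1.15e-09 and 8.13e-09, limma). They are given as descriptions, since the gene entered the test through the Type 1 lines, and with no filter on low values the adjusted p was 4.96e-09, 1.29e-09 and 9.22e-09. The deposited difference also varied with the Type 1 lines included: without line 2 the difference from Type 2 was 8.02, and without line 3 it was 6.04. Outside Type 1 the highest levels were in Other lines 2 (5.48), 7 (5.29) and 6 (4.78). The mean level of the mesothelial markers was 3.55, 3.61 and 5.17 in these lines.

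Igfbp3, the main carrier of insulin-like growth factors in blood, was high in Type 1 and low in Type 2. It measured 12.75, 10.84 and 12.02 in Type 1 lines, against 6.47, 7.37, 5.46, 7.77 and 5.29 in Type 2. Type 3 ran from 7.79 through 9.02 to 10.79, and Other from 4.91 through 8.66 to 11.74. The Type 1 lines lay above all Type 2 and Type 3 lines but overlapped with Other through its line 2. Igfbp3 was 5.40 ± 1.04 higher in Type 1 than in Type 2 (42.1-fold, adjusted p = 0.000506, limma), 2.67 ± 0.96 higher than in Type 3 (adjusted p = 0.0352) and 3.41 ± 0.98 higher than in Other (adjusted p = 0.0121), with both probe sets passing each time. The call against Type 3 was lost without Type 1 line 1 (2.23, adjusted p = 0.157) or 3 (2.60, adjusted p = 0.101) and without Type 3 line 4 (2.47, adjusted p = 0.0537) or 8 (2.55, adjusted p = 0.0535). The call against Other was lost without Type 1 line 1 (2.97, adjusted p = 0.0754) and with just the lines of these groups fitted (adjusted p = 0.0749). The highest Type 2 value of Igfbp3 was 7.77 and the lowest Type 3 value 7.79, and the difference of -2.72 ± 0.81 did not pass (adjusted p = 0.112, limma). How many of all tested genes separate 2 groups without overlap was not counted, for this pair or for Type 1 against Type 2 or Type 3. Of all tested genes 0.382% passed in Type 2 against Type 3, and 0 of the 10 genes did in limma (3 of the 10, and 2163 of all, at an unadjusted p below 0.05). With array weights the Igfbp3 difference passed (-2.61, adjusted p = 0.0192), as it did with just the Type 2 and Type 3 lines fitted (adjusted p = 0.0184).

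**Figure D2:**
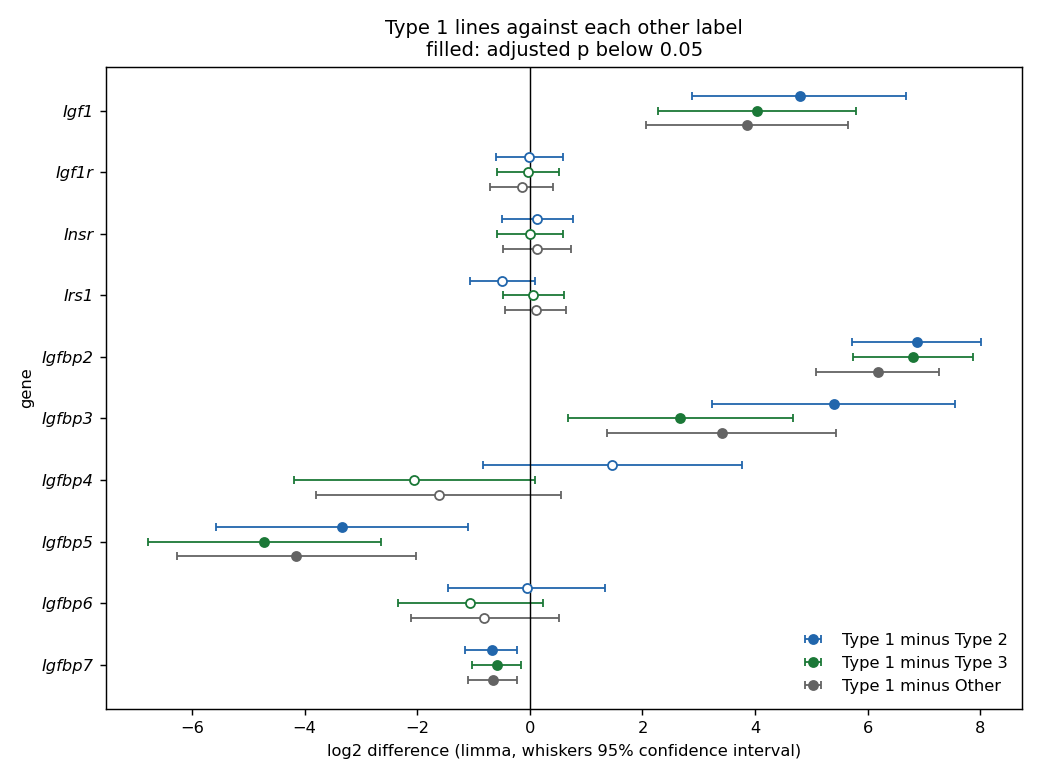
Log2 difference of Type 1 from Type 2, Type 3 and Other (x axis, limma) for each of the 10 genes (y axis), with whiskers of the 95% confidence interval and filled points for an adjusted p below 0.05. Igf1, Igfbp2 and Igfbp3 lie to the right of 0, Igfbp5 and Igfbp7 to the left, and the intervals of Igf1r and Insr span 0. The points of Igfbp2 use deposited values of other groups that lie mostly below the table median.

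Igfbp4, a binding protein that the metalloprotease pappalysin (Pappa) cleaves to release the growth factor, had its lowest values in Type 2. It measured 9.80, 7.09, 6.63, 10.19 and 7.30 in Type 2 lines, against 9.07, 12.25 and 13.27 (lowest, median and highest) in Type 3 and 8.18, 11.67 and 13.55 in Other. Type 2 lines 2, 3 and 5 lay below every Type 3 line, and lines 1 and 4 overlapped with Type 3. Igfbp4 was lower in Type 2 by -3.51 ± 0.87 against Type 3 (11.4-fold in size) at an adjusted p of 0.0716 in limma, which does not pass. It passed with array weights (-3.20, adjusted p = 0.0162), with depot as a covariate (-3.84, adjusted p = 0.0427), with just the Type 2 and Type 3 lines fitted (adjusted p = 0.0315) and when Other line 4 (adjusted p = 0.0498), 5 (adjusted p = 0.0497) or 7 (adjusted p = 0.0453) was left out. Against Other the difference of Type 2 was -3.09 ± 0.89 (adjusted p = 0.147), where 0.00813% of all tested genes and 0 of the 10 genes passed (1651 and 3 at an unadjusted p below 0.05). All 6 probe sets of Igfbp4 had a lower mean in Type 2 than in Type 3, and 0 of the 6 passed. In Type 1 the 3 lines were close together, at 9.37, 9.95 and 9.66, inside the range of every other group, and no difference of Type 1 in Igfbp4 passed, although with array weights that from Type 3 did (-2.12, adjusted p = 0.0338).

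Igfbp5, a binding protein that attaches to extracellular matrix, was low in Type 1. It measured 7.05, 4.78 and 4.67 in Type 1 lines, against 9.61, 11.20, 6.72, 7.67 and 8.99 in Type 2. Type 3 ran from 9.04 through 9.89 to 11.71, and Other from 6.12 through 10.30 to 11.46. Type 1 lay below all 8 Type 3 lines and below all 8 other PGF lines, whose lowest value was 8.99, and overlapped with Type 2 line 3 and Other line 1 through its line 1. The share of all tested genes with such a separation was not counted. Igfbp5 was lower in Type 1 than in Type 3 by -4.72 ± 1.00 (adjusted p = 0.000919, limma) and lower than in Other by -4.15 ± 1.02 (adjusted p = 0.00396). The difference from Type 2, -3.34 ± 1.08 (adjusted p = 0.0263), was lost without Type 1 line 2 (-2.98, adjusted p = 0.0904) or 3 (-2.92, adjusted p = 0.108) and without Type 2 line 1 (-3.15, adjusted p = 0.0534) or 2 (-2.75, adjusted p = 0.0678). Of its 2 probe sets just this one passed: the other ran from 6.66 to 7.66 over all lines, with an SD of 0.25, and averaged 6.75 in Type 1 against 7.03 in Type 3. The probe sets of Igfbp5 thus disagree in size, though both were lower in Type 1 in all 3 comparisons, and with their mean the differences shrank to -1.72, -2.50 and -2.25 against Type 2, Type 3 and Other, still passing.

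Igfbp6, which binds the product of Igf2 more tightly than that of Igf1, did not pass in any comparison. It measured 9.88, 8.50 and 8.78 in Type 1 lines, against 9.59, 9.75, 6.35, 9.74 and 10.13 in Type 2, with a range of 9.39 to 10.96 in Type 3 and 8.70 to 11.31 in Other. The low value of Type 2 line 3 weighed on the difference of Type 2 from Type 3, which was -1.0 ± 0.52 (adjusted p = 0.327, limma) and -0.31 without that line. Type 1 against Type 3 gave -1.06 ± 0.62 (adjusted p = 0.195), which passed with array weights (-1.21, adjusted p = 0.0451) and with just those lines fitted (adjusted p = 0.0492).

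Igfbp7, a relative with low affinity for insulin-like growth factors, fell by a small amount in Type 1. It measured 12.74, 12.01 and 11.65 in Type 1 lines, against 12.89, 12.57, 13.06, 12.83 and 12.73 in Type 2, with 12.36, 12.69 and 13.23 (lowest, median and highest) in Type 3 and 12.23, 12.81 and 13.21 in Other. Type 1 lines 2 and 3 lay below all 20 other lines, and line 1 lay among them. The differences of Type 1 were -0.68 ± 0.22 against Type 2 (adjusted p = 0.0293, limma), -0.58 ± 0.21 against Type 3 (adjusted p = 0.0341) and -0.66 ± 0.21 against Other (adjusted p = 0.0238). They rest on lines 2 and 3: without line 3 they were -0.44 (adjusted p = 0.218), -0.34 (adjusted p = 0.285) and -0.41 (adjusted p = 0.215), and without line 2 they were -0.62, -0.52 and -0.60 (adjusted p = 0.0919, 0.120 and 0.0895). The call against Type 2 was also lost without Type 2 line 1 (-0.66, adjusted p = 0.0522) or 3 (-0.62, adjusted p = 0.0653), and that against Type 3 without Type 3 line 6 (-0.56, adjusted p = 0.0525) or 7 (-0.51, adjusted p = 0.0557). Of 3 Igfbp7 probe sets, 1 passed against Type 2, 1 against Type 3 and 2 against Other. With depot as a covariate the adjusted p was 0.0639 against Type 2 and 0.0540 against Type 3. With the mean of the probe sets it was 0.0672 and 0.138, and with just the lines compared it was 0.0579, 0.0558 and, against Other, 0.104. With the number in the clone name as a covariate the adjusted p against Type 3 was 0.0697.

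Igfbp2 and Igfbp5, which moved in opposite directions in Type 1, are neighbours on chromosome 1 with 0 annotated genes between them in RefSeq (GRCm38.p6). Of the 10 genes, 9 have an entry in the RefSeq promoter table of that build. The 250 bases before the start of Igfbp2, Igfbp5 and Igfbp3, which changed in Type 1, are shown, on the gene's own strand, so that the neighbours can be set beside each other and beside Igfbp3. Capitals mark matches to GGGCGG in Igfbp2, to TATTTAA in Igfbp5 and, read on both strands with overlaps, to the motif TATANA in Igfbp3.
Igfbp2 (chr1:72824230-72824479, plus strand): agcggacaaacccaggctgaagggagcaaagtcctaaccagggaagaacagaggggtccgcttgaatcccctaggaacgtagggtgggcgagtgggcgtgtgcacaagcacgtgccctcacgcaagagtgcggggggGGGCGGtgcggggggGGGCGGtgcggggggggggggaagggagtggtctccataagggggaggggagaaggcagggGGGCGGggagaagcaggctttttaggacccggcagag
Igfbp5 (chr1:72874866-72875115, minus strand): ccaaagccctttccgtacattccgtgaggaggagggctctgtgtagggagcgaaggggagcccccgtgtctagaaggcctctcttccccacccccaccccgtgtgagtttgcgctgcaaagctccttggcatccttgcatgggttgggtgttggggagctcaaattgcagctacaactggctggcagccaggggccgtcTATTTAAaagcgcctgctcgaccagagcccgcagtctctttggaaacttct
Igfbp3 (chr11:7213924-7214173, minus strand): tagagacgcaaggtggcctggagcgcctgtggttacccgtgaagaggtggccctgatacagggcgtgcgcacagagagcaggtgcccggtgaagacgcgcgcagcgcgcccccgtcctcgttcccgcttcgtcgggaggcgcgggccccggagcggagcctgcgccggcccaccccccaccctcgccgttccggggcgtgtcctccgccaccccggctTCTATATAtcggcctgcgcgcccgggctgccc

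The upstream stretch of Igfbp2 was 67.2% G and C and held 3 matches to GGGCGG, which begin at -113, -98 and -37 from the start, and no match to the other 3 motifs searched on both strands, which were TATANA, the variant TATTTAA and the box CCAAT. That of its neighbour Igfbp5 was 58.8% G and C and held 1 match to TATTTAA at -51 and none to the other motifs. That of Igfbp3, the richest in G and C at 73.2%, held overlapping matches to TATANA that run from -32 to -25 and none to the others. On either strand GGGCGG occurs in 32.7% of 32851 windows of this length in the table, TATANA in 22.6%, TATTTAA in 4.18% and CCAAT in 33.8%. The motifs were picked with the sequences in view and describe the letters only.

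**Figure D3:**
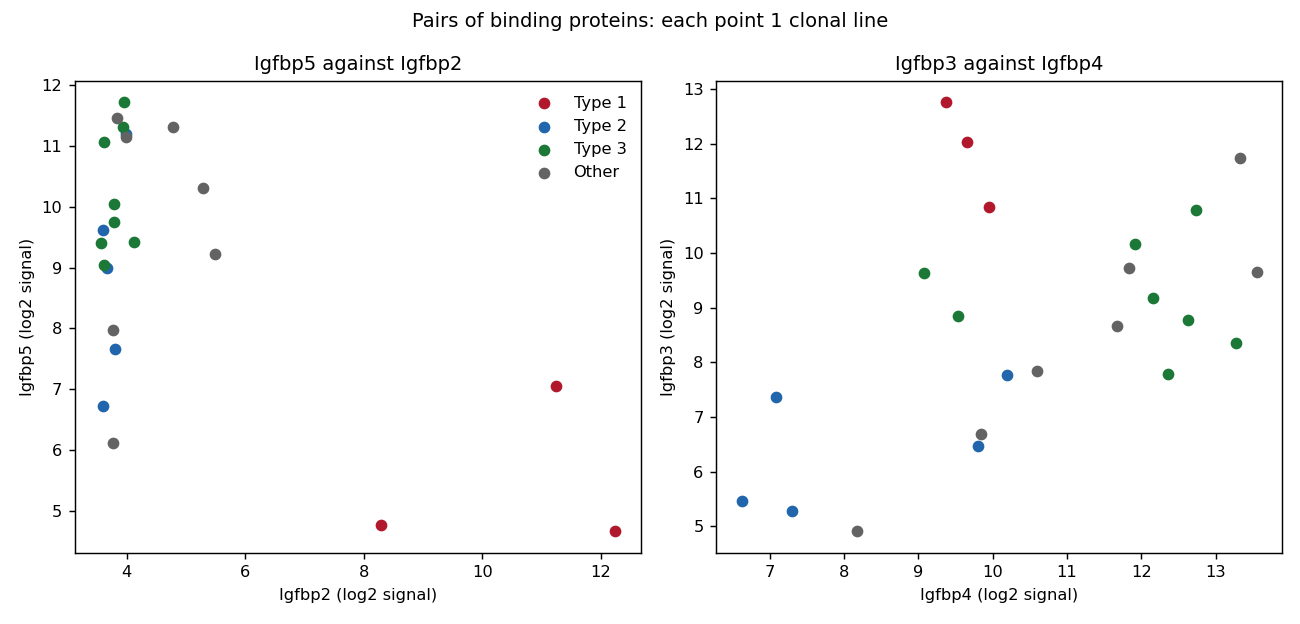
Log2 signal of Igfbp5 against Igfbp2 (left) and of Igfbp3 against Igfbp4 (right), with 1 point per clonal line coloured by type label. In the left panel the 3 Type 1 lines lie at high Igfbp2 and low Igfbp5, and in the right panel the Type 1 lines lie above the trend of the 20 other lines.

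Among the 20 lines outside Type 1 the binding proteins varied in other combinations. Igfbp3 and Igfbp4 had a Pearson correlation of 0.75 over these 20 lines and 0.49 over all 23, since the Type 1 lines combine high Igfbp3 with middling Igfbp4. Igfbp5 and Igfbp2 correlated at -0.60 over 23 lines but at 0.22 over the 20, so that their opposite movement rests on the Type 1 lines. Igfbp5 and Igfbp7 correlated at -0.64 over the 20 lines and 0.18 over 23. Igf1 and Igfbp2 correlated at 0.75 over 23 and 0.29 over 20 lines, and the receptors Igf1r and Insr at 0.36 and 0.55. These lines share 1 mouse and 1 set of arrays, and the correlations are given as descriptions.

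The genes most alike in pattern were sought among 11788 tested genes by Pearson correlation over the 23 lines, leaving out clone and predicted names. For Igf1 they were Adam9 (0.867) and Scarb2 (0.858), which kept 0.754 and 0.636 over the 20 lines outside Type 1. For Igfbp2 they were Chchd10 (0.971) and Uchl1 (0.966), which fell to 0.458 and 0.566 over the 20 lines. For Igfbp3 they were Lhpp (0.863) and Stard5 (0.849), and for Igfbp4 Mtarc2 (0.872) and Nfia (0.817), the last pair at 0.869 and 0.817 without Type 1. Igfbp5 was closest to Pik3r1 (0.837), a regulatory subunit of phosphoinositide 3-kinase, and to Medag (0.803), at 0.681 and 0.630 over 20 lines. Insr was closest to Tk2 (0.905) and H2ac19 (0.868), Igf1r to Rerg (0.738) and Pear1 (0.723), and Irs1 to Pla2g2c (0.672) and Mcu (0.657). Igfbp6 was closest to Ift140 (0.793) and Atg4c (0.781), and Igfbp7 to Cers6 (0.802) and Hipk1 (0.786).

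The differentiation score was set against the genes as a slope per point, with the type label in the model, and 0 of the 10 genes passed. Of all tested genes 0% passed in limma, and at an unadjusted p below 0.05 there were 872 genes, 2 of the 10 among them. Igfbp7 came closest, with 12.95 ± 0.17 at score 2 (SD, n = 8, Type 1 left out), 12.74 ± 0.24 at score 3 (n = 7) and 12.52 ± 0.22 at score 4 (n = 5). Its slope was -0.22 ± 0.08 per point (adjusted p = 0.583, limma). Igfbp5 ran the other way, with 8.83 ± 1.23, 10.00 ± 2.00 and 10.55 ± 1.02 at scores 2, 3 and 4 in the same lines, a slope of 0.84 ± 0.39 (adjusted p = 0.685). Igf1 averaged 6.58 ± 1.15, 5.90 ± 1.81 and 5.71 ± 1.03, with a slope of -0.47 ± 0.35 (adjusted p = 0.849). Igfbp4 did not order by score, at 10.35 ± 2.08, 12.00 ± 1.47 and 9.36 ± 2.56. The scores overlapped for each of these genes, for Igfbp7 least, where the lowest value at score 2 was 12.69 and the highest at score 4 was 12.73. For Igfbp2, Igfbp3, Igfbp6, Igf1r, Insr and Irs1 the slopes lay between -0.63 and 0.22.

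**Figure D4:**
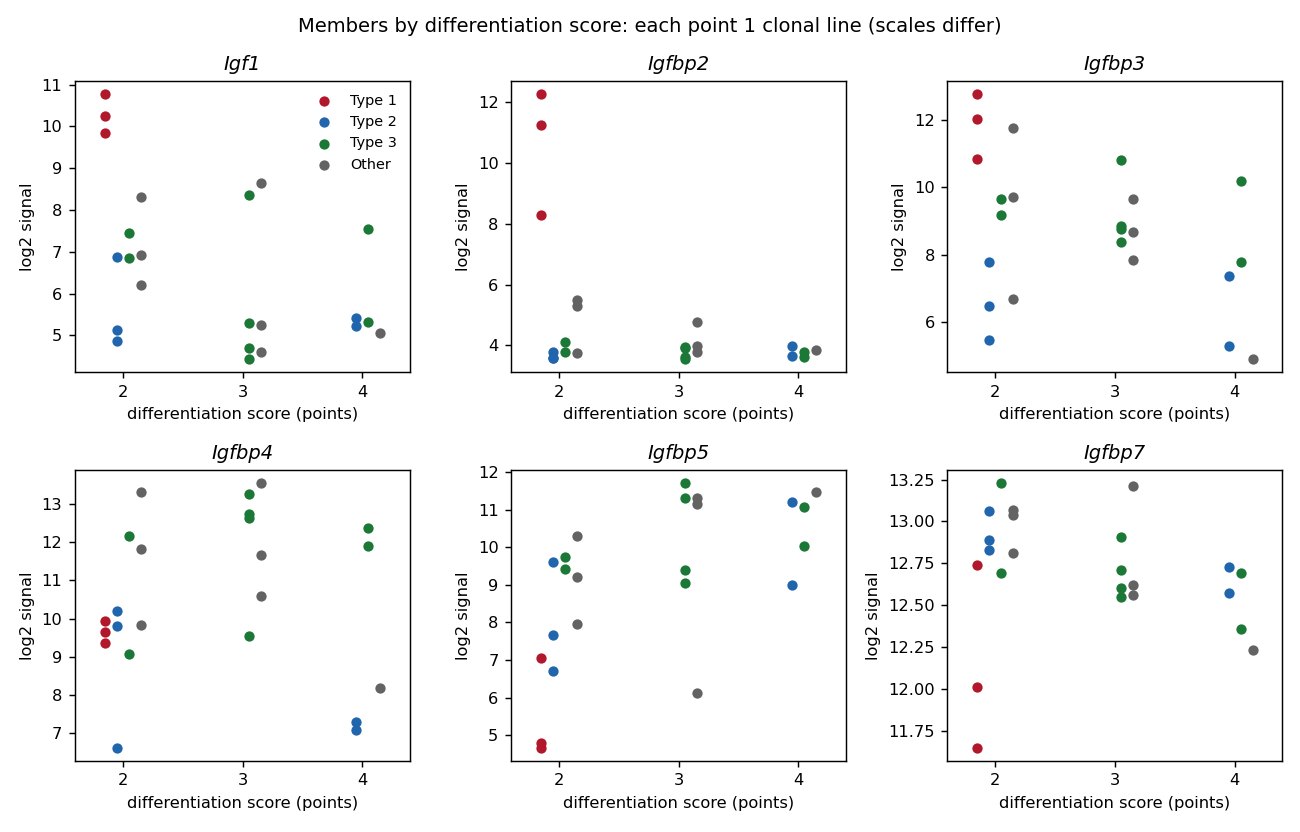
Log2 signal of 6 of the genes (y axes, scales differ between panels) against the differentiation score of each line (x axis, points from 2 to 4), coloured by type label, with some points overlapping. Outside Type 1, Igfbp7 drifts down from score 2 to score 4 and Igfbp5 drifts up, neither passing in limma.

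A score for acidification of the medium, whose direction the labels do not state, was tested in the same way, and again 0 of the 10 genes and 0% of all tested genes passed (2 and 1516 at an unadjusted p below 0.05). The largest slopes were those of Igfbp4, 0.64 ± 0.25 per point (adjusted p = 0.331, limma), and Igfbp5, 0.56 ± 0.25 (adjusted p = 0.383). Between PGF and SCF lines, with the type label in the model, 0 of the 10 genes and 0% of all tested genes passed (1 and 1034 at an unadjusted p below 0.05). Igf1r came closest: outside Type 1 it averaged 8.13 ± 0.26 in PGF lines (SD, n = 8) and 8.55 ± 0.39 in SCF lines (n = 12). Its difference was -0.46 ± 0.16 (adjusted p = 0.522, limma), and -0.33 without Type 3 line 4. Within Type 3 the PGF lines averaged 8.08 and the SCF lines 8.61, and within Other 8.14 and 8.69. In Type 2 the PGF line, at 8.27, lay among the SCF lines, which ran from 8.17 to 8.42. The other tested probe sets of Igf1r gave differences of -0.42, -0.20 and 0.02. Type 3 against Other also gave 0 of the 10 genes and 0% of all tested genes (0 and 1083 at an unadjusted p below 0.05), with differences of the 10 genes between -0.62 and 0.73.

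Around the 10 genes, a list of 45 other genes of the pathway was examined, of which 39 are on the array with a single symbol and 32 were tested. In Type 1, 5 rose and 4 fell against Type 2, 6 rose and 9 fell against Type 3, and 6 rose and 6 fell against Other. Of all tested genes 25.2%, 34.7% and 28.4% changed in these comparisons, beside 9, 15 and 12 of the 32 here. The list's median difference was -0.03, -0.11 and -0.14, beside 0.01 for all tested genes, and 0 passed in limma in the other 6 comparisons, with at most 8 of the list at an unadjusted p below 0.05. The second ligand, Igf2, averaged 6.10 in Type 1, 5.75 in Type 2, 6.05 in Type 3 and 6.27 in Other and did not pass. Irs2, another docking protein, averaged 6.82 in Type 1, 5.76 in Type 2, 5.47 in Type 3 and 5.61 in Other. Its Type 1 lines overlapped with Type 2 and Type 3.

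Grb10, an adaptor that restrains signalling by both receptors, was high in the Type 1 lines. It measured 11.78, 11.43 and 11.71 in Type 1 lines, against 6.65, 3.93, 7.35, 4.08 and 10.54 in Type 2. Grb10 was 7.52 ± 1.21 higher in Type 1 than in Type 3 (adjusted p = 5.64e-05, limma), 6.78 ± 1.24 higher than in Other (adjusted p = 0.00027) and 5.13 ± 1.31 higher than in Type 2 (adjusted p = 0.00595). The sizes rest on low signals, since 7 of 8 Type 3 lines, 5 of 7 Other lines and 2 of 5 Type 2 lines lay below the table median; with such values raised to it the differences of Grb10 were 6.20, 5.90 and 4.68 in that order. Outside Type 1 it was high in Type 2 line 5 (10.54), the PGF line of that type, in Other line 7 (9.32) and in Type 3 line 7 (7.61), and with depot as a covariate the difference from Type 2 no longer passed (3.25, adjusted p = 0.062). When its probe sets were averaged, the differences of Grb10 were smaller, at 2.68, 3.71 and 3.42 against Type 2, Type 3 and Other, and passed.

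Parts of the kinase downstream of Irs1 moved in opposite directions. Pik3cb, a catalytic subunit of phosphoinositide 3-kinase, measured 8.09, 8.06 and 8.05 in Type 1 lines, above all 20 others, and was 1.77 ± 0.32 higher than in Type 2 (adjusted p = 0.000322, limma), 2.81 ± 0.30 than in Type 3 and 2.18 ± 0.31 than in Other. Pik3r1, a regulatory subunit, measured 8.81, 8.66 and 8.20 in Type 1 lines, below all 20 others, and was lower by -1.55 ± 0.27 against Type 3 (adjusted p = 0.000118), -1.57 ± 0.27 against Other and -0.95 ± 0.29 against Type 2. The last was lost with depot as a covariate (adjusted p = 0.0705) and without Type 1 line 3 (-0.77, adjusted p = 0.105). Pik3r3, another regulatory subunit, ran from 7.19 to 7.46 in Type 1 lines, also below all 20 others. Pik3r2 and the catalytic subunit Pik3ca overlapped with every other group. Of all tested genes, 7.86% lay wholly above the 20 other lines in Type 1 and 5.89% wholly below. Foxo1, a transcription factor that insulin signalling keeps out of the nucleus, rose in Type 1 by 1.13 ± 0.22 against Type 2 and 1.06 ± 0.21 against Other (adjusted p = 0.000524 each, limma). It also passed against Type 3 (0.83), a call lost in 1 of the 23 fits that left out a line. Socs3, a feedback inhibitor, was lower by -1.81 ± 0.38 against Type 3 (adjusted p = 0.000876) and -1.90 ± 0.39 against Other (adjusted p = 0.00085), and did not pass against Type 2 (-0.85, adjusted p = 0.14).

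Among the genes of the list that act on the ligands and binding proteins outside the cell or at its surface, Stc1 and Igf2r passed in all 3 comparisons of Type 1, Htra1 in 2, and Pappa, Stc2 and Igfbpl1 in 1 each. The second ligand Igf2 passed in none, and Igfals lay below the table median in all 23 lines and Pappa2 in 22. Stc1, a stanniocalcin that inhibits pappalysin, measured 4.23, 4.61 and 5.03 in Type 1 lines, with -2.86 ± 0.77 against Type 3 (adjusted p = 0.00631, limma), -2.61 ± 0.79 against Other (adjusted p = 0.0162) and -2.51 ± 0.83 against Type 2 (adjusted p = 0.03). All 3 Type 1 values lay below the table median, and with such values raised to it the differences were -2.37, -2.10 and -2.01 in that order, the last no longer passing (adjusted p = 0.0808). Of the 3 deposited differences, that from Type 3 alone kept its call under every setting tried: with depot as a covariate Stc1 no longer passed against Type 2 (adjusted p = 0.129) or Other (adjusted p = 0.0543), and without Type 1 line 1 the differences were -2.32 (adjusted p = 0.116) and -2.41 (adjusted p = 0.0746). Against Type 2 it was also lost without Type 1 line 2 or 3 or Type 2 line 1 (adjusted p = 0.0678, 0.0542 and 0.0752). When the probe sets of Stc1 were averaged, the differences were -1.29 against Type 2, -1.53 against Type 3 and -1.42 against Other, and passed. Pappa fell against Type 3 alone (-2.13 ± 0.73, adjusted p = 0.0275), and the values of 4.12, 7.86 and 5.67 in Type 1 lines overlapped with Type 3; it was lost without Type 1 line 1 (-1.25, adjusted p = 0.261) or 3 (-2.02, adjusted p = 0.0917), with depot as a covariate (adjusted p = 0.0819) and with the number in the clone name as one (adjusted p = 0.0586). Htra1, a serine protease that cleaves binding proteins, was 1.61 ± 0.56 higher in Type 1 than in Type 3 (adjusted p = 0.0289) and 1.58 ± 0.57 higher than in Other (adjusted p = 0.0408), and both calls were lost with depot as a covariate (adjusted p = 0.0813 and 0.123) and without Type 1 line 1 (adjusted p = 0.108 and 0.14) or 3 (adjusted p = 0.0941 and 0.121). Against Other the Htra1 call also went without Type 1 line 2 (adjusted p = 0.0561) and without Other line 1, 3, 4 or 7 (adjusted p between 0.0534 and 0.0713), with no filter on low values (0.0522), with the number in the clone name as a covariate (0.0533) and with just those lines (0.0898). Igf2r, which clears Igf2 from the cell surface, was lower by -1.04 ± 0.29 against Type 2 (adjusted p = 0.0101), -1.10 ± 0.27 against Type 3 and -0.91 ± 0.27 against Other, and with depot as a covariate passed against Type 3 alone (adjusted p = 0.0655 against Type 2 and 0.0564 against Other). The same calls of Igf2r were lost without Type 1 line 1 (-0.73, adjusted p = 0.116, and -0.60, adjusted p = 0.167). Of 10 alternative settings, depot included, 1 lost the call of Igf2r against Type 2 and 2 lost that against Other.

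**Figure D5:**
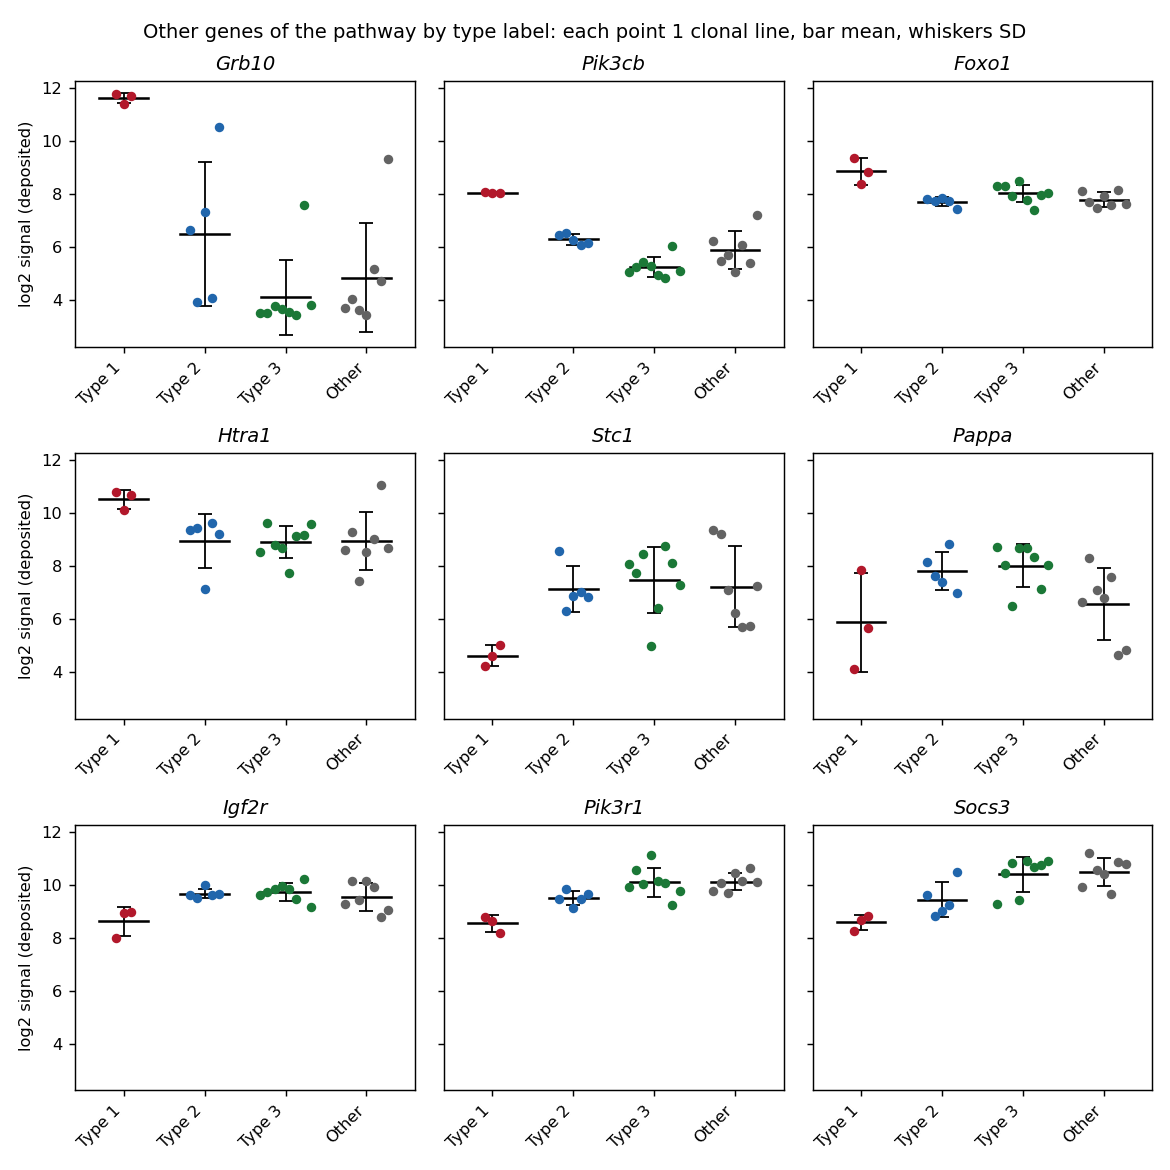
Log2 signal of 9 other genes of the pathway (y axis, 1 panel per gene) by type label (x axis), with 1 point per clonal line, bars at the group mean and whiskers of 1 SD. Grb10, Pik3cb, Foxo1 and Htra1 have higher means in Type 1, and Stc1, Pappa, Igf2r, Pik3r1 and Socs3 lower ones.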

How the data were processed

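Expression was measured on 1 array per line from biotin-labelled RNA (250 ng of total RNA), per the labels' protocols. The values that the authors deposited run from 2.03 to 14.46, which was read as log2 signal, with array medians of 5.09 to 5.16. The submitters' processing notes name MAS5. The log2 scale and the scaling between arrays are stated neither there nor in the labels. Levels are therefore compared within a probe set and not between probe sets. The values were used as deposited.

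Of 45101 probe sets 34945 have a single symbol in the platform annotation and 932 have several; the latter were not used. By gene ID 34741 matched RefSeq, which changed 0 symbols. The brightest probe set on average stood for each gene. The 12307 genes that exceeded the median of the table in 3 or more lines were tested with limma 3.58.1 in R 4.3.3 (lmFit, eBayes; two-sided; all 23 lines), with Benjamini-Hochberg adjustment over all of them and a threshold of 0.05. Score and depot comparisons have the type label in the model. Line numbers follow the order of deposition within a type. Correlations of array pairs ran from 0.937 to 0.992. No detection calls were used, and precision is limited by how many arrays there are. The fitting code was tested on simulated data.

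The genes, lists and comparisons were chosen with earlier results of these data known. The rule for named genes takes all 10 genes, for each comparison the 3 other pathway genes that rose most and the 3 that fell most among those past the threshold, and for each of the 10 genes the 2 most correlated. The markers of smooth muscle, endothelium and leukocytes come from lists chosen in the same way. The fits with low values raised to the table median were added after seeing the data. Plots and promoter windows were made in Python 3.11.15 with pandas 2.3.3 and matplotlib 3.10.9.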

Additional observations from a re-analysis of the deposited data

Results flagged for a closer look

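Of 30 sets of values (the 10 genes in each group of more than 3 lines), 3 had 1 line whose gap to its nearest neighbour took up an unusually large share of the group's range by Dixon's test; chance marks about 1 in 20. In Type 2, line 4 was high for Igf1, at 6.88 with the next line at 5.41, a gap of 0.73 of the range. In Type 2, line 3 was low for Igfbp6, at 6.35 with the next at 9.59 (0.857). In Type 3, line 4 was high for Insr, at 7.71 with the next at 6.55 (0.746). The same line had the highest mean level of the fat cell markers (4.29), raised by Adipoq (6.48). Cidec and Lep lay below the table median in all lines, and so did this mean.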

How the results depend on the processing

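No paired analysis was possible because the labels give no replicate numbers shared between groups. Centring the arrays or quantile normalization left the calls of the 10 genes at 3 higher and 2 lower in each comparison of Type 1. Leaving out 1 line moved the number of genes called in Type 1 against Type 2 from 2004 (without Type 1 line 1) to 3344, against Type 3 from 3124 to 4424, and against Other from 2419 to 3820, while 3 to 5, 3 to 5 and 4 to 5 of the 10 genes passed. In Type 2 against Type 3 the count of 47 genes ran from 0 (without Type 2 line 1) to 195 (without Other line 7), with 0 to 1 of the 10 genes, and in Type 2 against Other from 0 to 216 (without Other line 7). With every probe set tested on its own the counts were 5148, 7168 and 5798 in the 3 comparisons of Type 1, against 3099, 4274 and 3495 genes; this counts probe sets. Array weights gave 5087 genes in Type 1 against Type 2. With just the lines compared, Type 1 against Other gave 2214 genes and 3 of the 10. Type 2 against Type 3 gave 9 genes with no filter, 1 with the mean of probe sets, 12 with every probe set, 989 with array weights (3 of the 10 genes), 5 with the number in the clone name as a covariate, 133 with depot as a covariate (1 of the 10) and 551 with just those lines (2 of the 10). Type 2 against Other gave 1 gene as reported, 0 with the mean of probe sets, 101 with array weights and 0 with just those lines. Raising values below the table median to it, an alternative chosen after seeing the data, left 5 of the 10 genes called in each comparison of Type 1. Igfbp2 is again counted there as a description only, as it entered the test through Type 1. The differentiation slope gave 2 genes with depot as a covariate. Without the type label in the model, PGF minus SCF turned to 0.72 for Igfbp3 (-0.91 as reported) and -0.29 for Igfbp5 (0.80 as reported), neither passing. Without the label the fit compares the plain depot means, with all 3 Type 1 lines among the PGF lines. These means were 9.10 in PGF and 8.38 in SCF lines for Igfbp3, and 8.98 and 9.27 for Igfbp5. The causes of the changes across settings were not tested. Genes whose difference was smaller than its SE were not followed across settings. For single genes, leaving out 1 line kept the side of the threshold in 1568 fits, lost it in 39, gained it in 3 and turned 0; other alternatives kept it in 645, lost it in 24, gained it in 9 and turned 2.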
